A study of Mus musculus with 3 samples.

Results

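The tubulin isotypes described here are 10 genes, 7 for beta-tubulin (Tubb3, Tubb2a, Tubb2b, Tubb4a, Tubb4b, Tubb5 and Tubb6) and 3 for alpha-tubulin (Tuba1a, Tuba1b and Tuba1c). They were taken by gene name from a table of 22976 genes, and all 10 passed the filter on low counts. Messenger RNA came from 3 libraries of NSC-34, a wild-type mouse line obtained by fusion of neuroblastoma cells and embryonic spinal cord cells rich in motor neurons. The control was 1 library of untreated cells, and the comparison group was 2 libraries, each of a clone that was spontaneously resistant to PR20, with 10 µM PR20 for 3 weeks given as treatment. PR20 is a synthetic peptide of repeated proline and arginine, one of the dipeptides translated from the expanded C9ORF72 repeat of amyotrophic lateral sclerosis and frontotemporal dementia. The labels do not say whether the clones were still exposed to PR20 at harvest, nor that the untreated cells were cloned, so selection, exposure and cloning cannot be told apart.

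Microtubules are hollow polymers of alpha- and beta-tubulin dimers. Vertebrate genomes carry several genes for each subunit, and the isotypes they encode are alike in the folded body and differ most in the acidic carboxy-terminal tail, where motors bind and enzymes add or remove amino acids. Neurons are known for a particular set of isotypes, with TUBB3 used as a neuronal marker and TUBA1A as the main alpha-tubulin of the developing brain, while TUBB (Tubb5 in the mouse), TUBB4B, TUBB6, TUBA1B and TUBA1C are found in many cell types. The 10 genes were therefore read in 2 groups, a neuron-enriched group of 5 (Tubb3, Tubb2a, Tubb2b, Tubb4a and Tuba1a) and a widely expressed group of 5 (Tubb5, Tubb4b, Tubb6, Tuba1b and Tuba1c).

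Library totals lay between 11307034 and 11700755 counts, so 3 counts, the limit that a count of 0 allows, stood at 0.256 to 0.265 CPM, the usual unit of reads relative to library size. Levels below are CPM after TMM scaling. A mean ± SD is over the 2 clones, and the control is a value without replicate. Of the defining markers of motor neurons, Chat, the acetylcholine synthesis gene, had 7 reads in the control and 0 in both clones, Mnx1 had 1, 1 and 3 reads in the control, clone 1 and clone 2, and Slc5a7 has no value here. Some other genes of that list were present in the control, with 113 reads for the vesicular acetylcholine transporter gene Slc18a3 and 554 for Ache, which encodes acetylcholinesterase. In clones 1 and 2, Slc18a3 had 3 and 1 reads, no more than the limit of 3 counts, and Ache had 231 and 209 reads. Markers of the sympathetic neuroblastoma lineage were present, and their summed level was 1265 CPM in the control against 830 and 752 CPM in the clones.

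The main finding is a change of isotype makeup that follows the 2 groups. These groups were set with earlier results of these data known, so the pattern is a description and no independent test of the split. All 5 widely expressed isotypes rose in the clones, and 4 of the 5 neuron-enriched isotypes fell, with Tubb4a not passing the test (edgeR's quasi-likelihood test, Benjamini-Hochberg adjusted p under 0.05 over 13705 genes). The median log2 fold change was 0.66 in the widely expressed group and -1.22 in the neuron-enriched group, against 0.0021 over all tested genes. In the same test 50.1% of all genes were called (24.3% higher, 25.8% lower), the background against which the 9 of 10 isotypes called are read. Both clones lay on the same side of the control for 10 of 10 isotypes and for 88.5% of tested genes. In bulk RNA, fewer cells using a gene and less transcript per cell cannot be told apart.

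**Figure D1:**
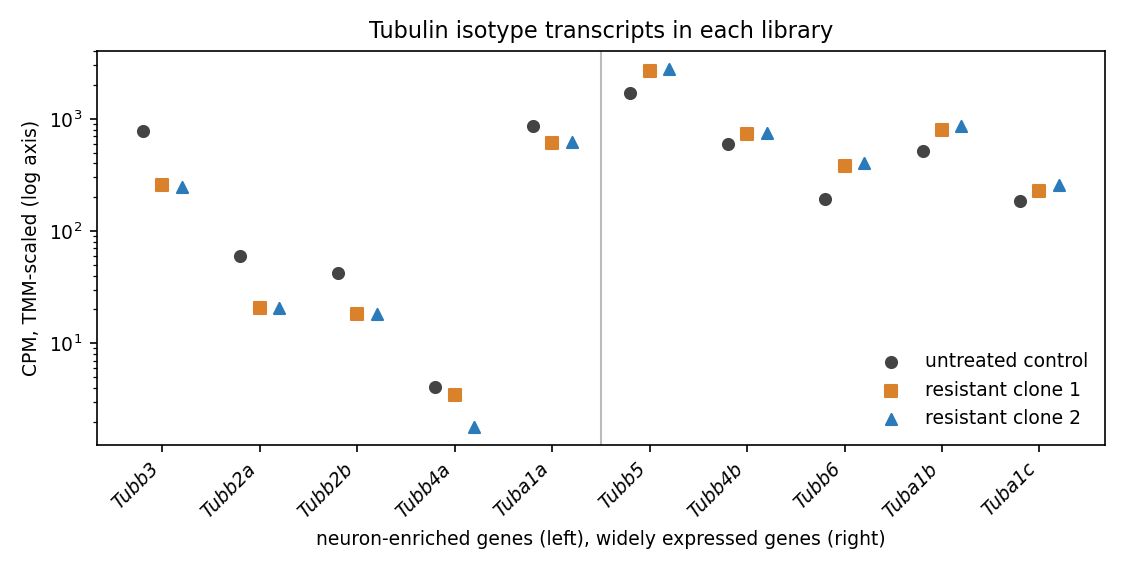
Level of each isotype in the 3 libraries as TMM-scaled CPM on a log axis, with 1 point per library and the neuron-enriched genes left of the grey line. The 2 clones lie close together for all genes but Tubb4a, below the control on the left and above it on the right.

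Among the neuron-enriched genes, Tubb3 (ENSMUSG00000062380.4; GRCm38 chromosome 8, 123411424 to 123422015), the class III beta-tubulin gene, changed most. It stood at 777 CPM in the control, 255 CPM in clone 1 and 248 CPM in clone 2, from 9353, 2871 and 2759 reads. The clones were thus almost equal and far below the control, a 3.09-fold difference (log2 fold change -1.63 ± 0.05 SE, edgeR adjusted p = 2.23e-13). A more negative fold change was found for 725 of the 13705 tested genes, 5.29%.

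Tubb2a and Tubb2b, neighbouring class II beta-tubulin genes on chromosome 13 (34074274 to 34078007 and 34126748 to 34130466), fell alongside it. Tubb2a had 60.5 CPM in the control against 20.7 and 20.5 CPM in clones 1 and 2 (log2 fold change -1.55 ± 0.09 SE, edgeR adjusted p = 1.67e-09). Tubb2b had 42.6 CPM in the control against 18.1 and 18.4 CPM (log2 fold change -1.22 ± 0.11 SE, edgeR adjusted p = 1.13e-07). For both, the 2 clones differed by less than their counting error.

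Tuba1a (chromosome 15, 98949837 to 98953703), mutated in human lissencephaly, was the alpha-tubulin gene that fell. Its level was 869 CPM in the control, 614 CPM in clone 1 and 618 CPM in clone 2 (log2 fold change -0.50 ± 0.05 SE, edgeR adjusted p = 3.34e-07). The fall is the smallest of the 4 called, and the clones did not overlap the control. Tubb4a (chromosome 17, 57080066 to 57087782), a beta-tubulin gene of neurons and oligodendrocytes, was scarce, with 49 reads in the control, 39 in clone 1 and 20 in clone 2. Its log2 fold change of -0.63 ± 0.35 (SE) did not pass (edgeR adjusted p = 0.151).

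Among the widely expressed genes, Tubb6 (chromosome 18, 67390717 to 67402749), the class V beta-tubulin gene, rose most. It went from 193 CPM in the control to 379 and 406 CPM in clones 1 and 2, a 2.03-fold rise (log2 fold change 1.02 ± 0.06 SE, edgeR adjusted p = 8.56e-10). The median log2 fold change of the 339 tested genes on chromosome 18 was 0.41, and its part in the rise of Tubb6 was not tested.

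Tubb5 (chromosome 17, 35833921 to 35838306), the class I beta-tubulin gene, had 1714 CPM in the control, 2638 CPM in clone 1 and 2796 CPM in clone 2. It rose 1.58-fold (log2 fold change 0.66 ± 0.05 SE, edgeR adjusted p = 3.71e-08). Tubb4b (chromosome 2, 25222160 to 25224702), a beta-tubulin gene common in cilia and dividing cells, rose least, from 597 CPM to 729 and 754 CPM (log2 fold change 0.31 ± 0.05 SE, edgeR adjusted p = 7.97e-05).

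The other two alpha-tubulin genes moved opposite to Tuba1a, although all 3 lie within one cluster on chromosome 15. Tuba1b (98931425 to 98934565) rose from 518 CPM to 790 and 860 CPM (log2 fold change 0.67 ± 0.06 SE, edgeR adjusted p = 8.75e-08). Tuba1c (99029891 to 99038110) rose from 185 CPM to 229 and 255 CPM (log2 fold change 0.39 ± 0.07 SE, edgeR adjusted p = 0.000138). The median log2 fold change of the 550 tested genes on chromosome 15 was -0.28, opposite to both rises, and its part in the fall of Tuba1a was not tested.

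**Figure D2:**
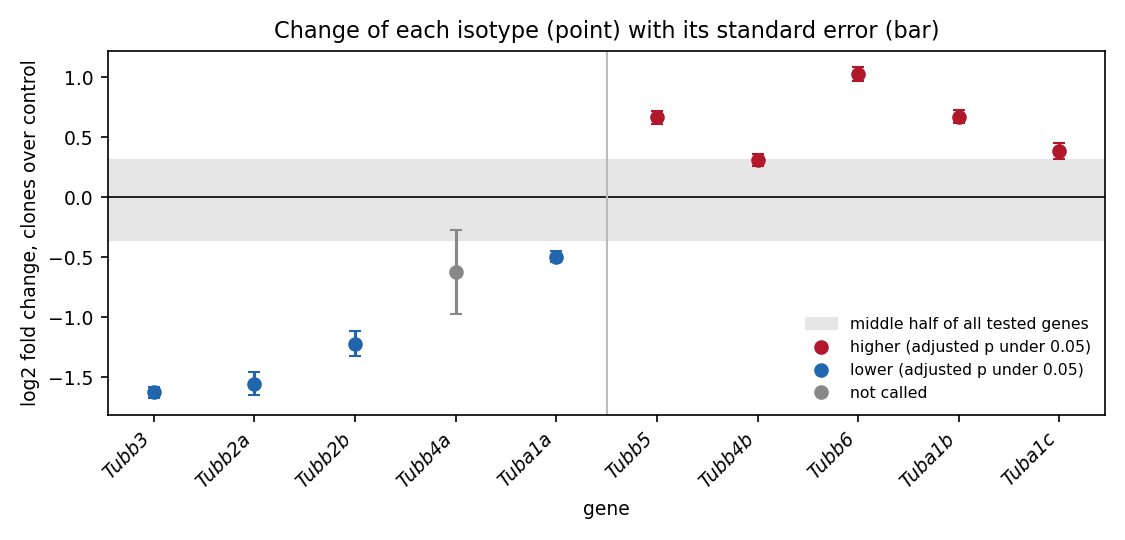
Fitted log2 fold change of each isotype, clones over control, with its standard error as the bar. The grey band runs from the lower to the upper quartile of all 13705 tested genes, -0.36 to 0.31, and Tubb4b lies at its upper edge.

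The authors' deposited table gives each of the 10 isotypes the same call as the edgeR test. The authors' deposited table has a log2 fold change of -1.64 for Tubb3 and 1.01 for Tubb6. The authors' deposited table lists 13.6% of its genes with an adjusted p under 0.05. It rests on the same 3 libraries and is no second experiment. With no filter on low counts, the edgeR test called 0 of the 10 isotypes (adjusted p from 0.0719 to 0.492, unadjusted p under 0.05 for 9) and 4 of all 22976 genes. With the filter, the DESeq2 test and limma-voom each called the same number of isotypes as edgeR, 9. Over all genes the DESeq2 test called 22.2% and limma-voom 6364 of 13705.

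Reads are assigned to 1 gene only where the sequence tells genes apart, and this bears unequally on the isotypes. Each 50-base window of the main transcript of every isotype was searched in all other annotated transcripts. Tubb3 and Tubb6 had 0% of windows at another locus, Tubb5 had 0.115% and Tubb4a 0.184%, so their reads are nearly all assignable. Tuba1b had 82.2% of windows elsewhere, Tuba1a 64.3%, Tuba1c 61.0%, Tubb4b 50.9%, Tubb2a 49.6% and Tubb2b 39.3%. Over the coding part alone, the share rose to 94.6% for Tuba1b, 90.6% for Tuba1c and 86.2% for Tuba1a, so most of the windows unique to these 3 genes lie outside the coding part. The read length was not given in the sources used here.

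**Figure D3:**
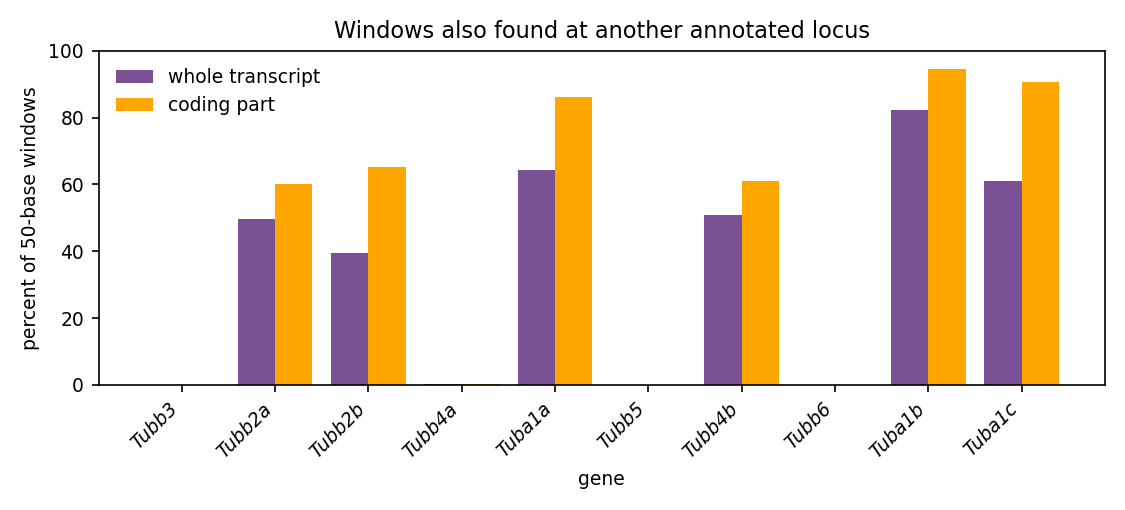
Share of 50-base windows of each isotype's transcript that occur at another annotated locus, for the whole transcript and for its coding part. Tubb3, Tubb4a, Tubb5 and Tubb6 have bars at or near 0%, and Tuba1b has the highest, at 82.2% and 94.6%.

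The ends of the coding sequences of Tubb2a and Tubb2b, which encode the tails, show how close these copies are. They are the last 60 coding bases including the stop codon, from Gencode transcripts on GRCm38 (chromosome 13, minus strand), 5′ to 3′, with capitals at bases that differ between the pair. The coding sequences of Tuba1a and Tuba1b were 98.3% identical and those of Tubb2a and Tubb2b 96.5%, whereas the closest to Tubb3 was Tubb6, at 85.9%.
Tubb2a: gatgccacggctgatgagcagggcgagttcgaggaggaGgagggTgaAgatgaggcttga
Tubb2b: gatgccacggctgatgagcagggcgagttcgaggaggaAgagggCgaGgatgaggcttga
Tubb2a and Tubb2b differ at 3 of these 60 bases, and none of the differences changes an encoded amino acid. The pair fell together, whereas Tuba1a fell and Tuba1b rose. Of the loci other than the 10 isotypes that share windows with Tuba1b, 9 of 16 were in the table, with 572, 537 and 550 reads in all in the control, clone 1 and clone 2. Those counts are small beside the 6231, 8880 and 9582 reads of Tuba1b and barely differ between libraries. They do not show how many reads were left unassigned because they match more than 1 locus. The part of shared sequence in the changes of these genes was not tested. The annotation used for positions also holds Gm49450, a same-strand gene that covers 26.2% of the exon bases of Tuba1a and 22.7% of those of Tuba1b, and reads in such overlaps are ambiguous for a gene counter that holds both genes. On the opposite strand, Fam166a covers 5.80% of the exon bases of Tubb4b and Gm41396 4.64% of those of Tuba1b. Those overlaps are from Gencode M21, while the counts were made with M16, and neither Gm49450 nor Gm41396 has a count here, so whether the overlaps touched the counting was not tested. The counts of the Tuba1 genes, Tubb2a, Tubb2b and Tubb4b are uncertain because of their shared windows.

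Between genes, levels can be compared only per length, and here they are CPM per kilobase of annotated exon. In the control the order was Tubb5 at 515, Tuba1a at 482, Tubb3 at 416, Tubb4b at 286 and Tuba1b at 276 CPM per kilobase. Tuba1c at 80.9, Tubb6 at 79.2, Tubb2a at 37.6, Tubb2b at 18.6 and Tubb4a at 1.83 CPM per kilobase followed. The counting intervals of Tubb4b (279 to 293) and Tuba1b (269 to 283) overlapped, as did those of Tuba1c (77.6 to 84.4) and Tubb6 (76.0 to 82.4). These neighbours were thus close, but overlap of intervals is no test of a difference, and none was run.

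In the clones Tubb5 remained at the top with 817 ± 33.5 CPM per kilobase, and Tuba1b came next with 440 ± 26.5. Tubb4b (355 ± 8.30) and Tuba1a (342 ± 1.73 CPM per kilobase) followed and were close, with Tubb4b higher in both clones. Tubb6 (161 ± 7.81) now stood above Tubb3 (135 ± 2.91 CPM per kilobase) in both clones, where in the control Tubb3 had been far above it. The reads of Tubb3 per read of Tubb6 went from 4.03 in the control to 0.674 and 0.611 in clones 1 and 2. Both of these genes have unique sequence throughout. The order of the other genes depends on the length used. Per 1000 unique windows, Tuba1b led with 1720 CPM in the control and 2741 ± 165 CPM in the clones, followed in the control by Tuba1a (1386), Tubb4b (785), Tubb5 (660) and Tubb3 (427 CPM) and in the clones by Tubb5 (1046 ± 42.9), Tuba1a (982 ± 4.96) and Tubb4b (974 ± 22.8 CPM). Tubb6 stood above Tubb3 in the clones by this measure too, with 230 ± 11.1 against 138 ± 2.99 CPM.

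As shares of the beta-tubulin pool per length, Tubb3 made up 30.7% in the control and 9.05% ± 0.476 in the clones (20.4% and 5.70% per unique window). Tubb5 grew from 38.0% to 54.8% ± 0.552, Tubb6 from 5.84% to 10.8% ± 0.190 and Tubb4b from 21.1% to 23.8% ± 0.182, while Tubb2a went from 2.77% to 0.860% ± 0.034. As plain reads, Tubb3 held 9353 of 40774 beta-tubulin reads in the control, 22.9% (exact 95% binomial interval 22.5% to 23.3%), against 6.32% and 5.84% in clones 1 and 2. Tubb4b barely moved as plain reads, with 17.6% in the control (interval 17.3% to 18.0%) and 18.0% and 17.8% in clones 1 and 2. Its gain in share thus depends on the length used. In the alpha-tubulin pool per length, Tuba1a went from 57.4% to 38.5% ± 1.39 and Tuba1b from 32.9% to 49.6% ± 0.948, so the leading alpha isotype of the control was second in both clones. The rank in the control rests on how length is counted: divided by the number of unique windows, Tuba1b led in all libraries, with 51.3% in the control and 67.8% in the clones, and Tuba1a went from 41.3% to 24.3%. By that measure Tubb4b (37.4%) stood above Tubb5 (31.5%) in the control and below it in both clones (mean 40.1% against 43.1%). The shares of 1 against 2 libraries had no test.

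**Figure D4:**
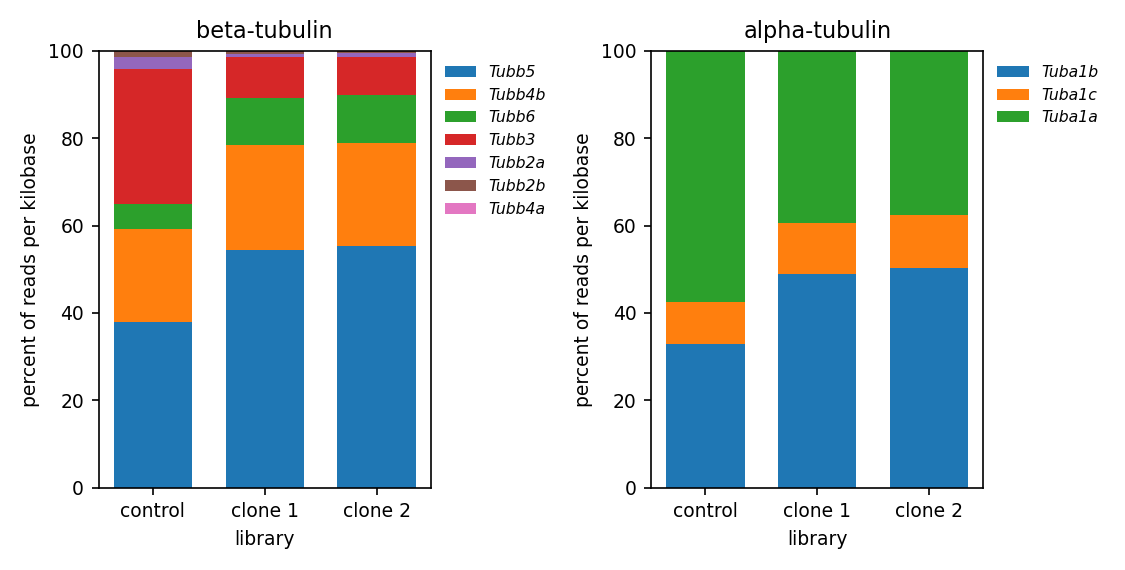
Makeup of the beta- and alpha-tubulin pools in each library, as percent of reads per kilobase of annotated exon. The Tubb3 segment shrinks from 30.7% to 9.39% and 8.71% in clones 1 and 2, Tubb5 widens, and Tuba1a and Tuba1b change places.

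The summed pools changed less than their makeup. The 3 alpha genes together had 1572 CPM in the control against 1632 and 1734 CPM in the clones, a mean difference of 7.07% (5.76% when each gene is taken per kilobase). This small difference depends on the length used. Per 1000 unique windows, Tuba1b rose from 1720 CPM in the control to 2741 ± 165 CPM in the clones. That step is larger than the fall of Tuba1a, from 1386 to 982 ± 4.96 CPM. The 7 beta genes together had 3389 CPM against 4043 and 4243 CPM, a mean difference of 22.3%. Taken per kilobase, so that the long Tubb5 transcript weighs no more than the others, the beta sum was 1354 against 1457 and 1522 CPM per kilobase, a difference of 9.95%. Without Tubb5, the other beta genes summed to 1675 CPM in the control and to 1406 and 1448 CPM in the clones. The 5 neuron-enriched genes summed to 1753 CPM in the control and 911 and 906 CPM in the clones, and the 5 widely expressed genes to 3207 CPM and to 4764 and 5070 CPM.

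The 2 clones differed little from each other. The ratio of clone 2 to clone 1 had an exact 95% counting interval that excluded 1 for 6 isotypes, against 11.6% of tested genes with reads, and for 5 of the 7 isotypes with at least 1000 reads over both clones, against 17.2% of genes as deep. All 5 of these were widely expressed genes, slightly higher in clone 2, with ratios between 1.03 (Tubb4b, interval 1.00 to 1.07) and 1.12 (Tuba1c, interval 1.06 to 1.18). Tubb4a was lower in clone 2, at a ratio of 0.518 (interval 0.286 to 0.909). With 1 library per clone there is no test of this difference, and the intervals cover counting error only.

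Over the 3 libraries, the 5 genes whose 2 clone-to-control log2 ratios lay nearest to those of Tubb3, among 10069 candidates averaging 5 CPM or more, were Nipal3, Frmd5, Rab27a, Tmem179 and Vdr. Their distances were 0.020 to 0.057 log2 units. Rab27a, a GTPase of vesicle docking, went from 28.6 CPM in the control to 9.34 and 9.25 CPM in the clones. Vdr, the vitamin D receptor gene, went from 27.5 to 8.63 and 8.71 CPM.

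The stretches before the gene starts of isotypes that fell and rose are shown for comparison, with capitals at matches on either strand. Searched were CCAAT, the core of a common promoter element bound by NF-Y, then the letters GGGCGG, known as a GC box bound by Sp1, and last a TATA box given as TATAAA. They come from RefSeq windows on GRCm38.p6, kept up to the start of the gene, and are Tubb3 (chr8:123411303-123411423, plus strand) and Tubb2a (chr13:34078009-34078258, minus strand), which fell, and Tubb5 (chr17:35838307-35838551, minus strand) and Tubb4b (chr2:25224703-25224952, minus strand), which rose.
Tubb3: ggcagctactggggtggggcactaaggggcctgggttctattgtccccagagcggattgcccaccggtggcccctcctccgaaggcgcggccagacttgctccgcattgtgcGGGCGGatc
Tubb2a: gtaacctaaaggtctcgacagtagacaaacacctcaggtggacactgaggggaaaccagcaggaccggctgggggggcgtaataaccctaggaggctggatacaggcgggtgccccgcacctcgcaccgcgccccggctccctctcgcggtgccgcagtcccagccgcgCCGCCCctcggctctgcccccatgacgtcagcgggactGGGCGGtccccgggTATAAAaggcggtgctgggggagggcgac
Tubb5: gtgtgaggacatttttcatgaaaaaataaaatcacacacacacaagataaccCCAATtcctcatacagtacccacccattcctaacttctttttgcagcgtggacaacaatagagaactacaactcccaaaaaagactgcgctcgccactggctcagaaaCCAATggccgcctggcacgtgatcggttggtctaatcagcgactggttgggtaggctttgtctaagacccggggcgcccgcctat
Tubb4b: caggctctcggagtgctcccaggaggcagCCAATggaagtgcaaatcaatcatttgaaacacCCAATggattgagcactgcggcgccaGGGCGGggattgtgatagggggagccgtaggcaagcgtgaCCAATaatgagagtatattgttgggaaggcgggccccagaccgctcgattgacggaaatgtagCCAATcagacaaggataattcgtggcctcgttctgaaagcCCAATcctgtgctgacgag
RefSeq windows of 300 bases, 250 before to 50 after the start, were matched for 8 of the 10 isotypes, all but Tubb2b and Tubb6. CCAAT occurred in 5 of 8 windows (37.4% of 32851 mouse windows), GGGCGG in 6 of 8 (35.7%) and TATAAA in 2 of 8 (13.6%). The stretches printed hold 5 CCAAT matches for Tubb4b, 2 for Tubb5 and 0 for Tubb3 and Tubb2a, but they differ in length, with 121 bases for Tubb3 and 250 for Tubb4b. The whole windows of Tubb3, Tuba1a, Tuba1c, Tubb4b and Tubb5 each hold at least 1. The window of Tuba1b, which rose, holds 0, so the matches do not separate the isotypes that rose from those that fell. Matches of the NF-Y element and of the GC box can overlap at shared letters. A match is a description of letters only.

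Of 10 further tubulin genes, 5 passed the filter, and 1 was called (20.0%, against 50.1% of all genes). Tuba8, an alpha-tubulin gene of muscle and brain, fell from 22.4 CPM in the control to 7.65 and 9.43 CPM in the clones (log2 fold change -1.39 ± 0.16 SE, edgeR adjusted p = 2.50e-06). Tubg1, the gamma-tubulin gene of the centrosome, did not pass, with 159 CPM in the control and 161 ± 1.55 CPM in the clones. Tuba3a, Tuba3b, Tuba4a and Tubb1 had at most 8 reads in any library.

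Enzymes that act on the tubulin tail were mostly lower. Of 25 such genes 16 were tested. In all 11 fell and 1 rose, against 25.8% of all genes lower and 24.3% higher, and the median of their log2 fold changes was -0.62. Ttll7, a polyglutamylase gene active on beta-tubulin of neurons, fell from 56.7 CPM to 7.47 and 6.82 CPM (log2 fold change -2.99 ± 0.12 SE, edgeR adjusted p = 1.25e-11). Ttll1, the catalytic subunit gene of the neuronal polyglutamylase complex, fell from 44.1 to 17.6 ± 1.38 CPM, and Nicn1, a subunit gene of the same complex, fell to 32.2 ± 1.09 CPM (log2 fold change -0.90). Vash2, a gene for a carboxypeptidase that removes the terminal tyrosine of alpha-tubulin, fell from 33.2 to 11.1 ± 2.52 CPM, and Ttl, for the ligase that puts the tyrosine back, fell as well, from 34.2 to 21.4 ± 2.10 CPM. Agtpbp1, a deglutamylase gene, fell from 19.1 to 9.97 ± 0.507 CPM. The DESeq2 test called 6 of these 16 (37.5%), all lower, against 10.6% of all genes lower, and did not call the rise of Ttll3 (edgeR adjusted p = 0.0461, DESeq2 adjusted p = 0.468).

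Genes of microtubule nucleation were mostly higher, with 11 of 17 higher (24.3% over all genes), 2 lower (25.8% over all genes) and a median log2 fold change of 0.34. Tubgcp3 and Tubgcp5, which encode parts of the gamma-tubulin ring complex, both rose, Tubgcp3 from 65.2 to 99.5 ± 2.32 CPM and Tubgcp5 from 58.3 to 88.7 ± 0.702 CPM. Cdk5rap2, an anchor of that complex at the centrosome, rose from 57.6 to 84.9 ± 3.75 CPM. Mzt2, a small ring complex protein gene, fell from 13.05 to 4.87 ± 0.158 CPM. The DESeq2 test called 6 of the 17 as higher and 1 as lower, against 11.5% and 10.6% of all genes.

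Genes that fold tubulin were called in both directions. Of 15 chaperonin and prefoldin genes 14 were tested. Of these 3 rose and 4 fell, around a median log2 fold change of -0.04, and 7 of 14 called is close to the 50.1% of all genes. The DESeq2 test called 1 higher and 1 lower. Vbp1, a prefoldin subunit gene, fell from 318 to 239 ± 11.3 CPM and Pfdn6, another, rose from 63.3 to 84.9 ± 9.27 CPM, while Pfdn1 and Pfdn4 had log2 fold changes of 0.24 and -0.36 (DESeq2 adjusted p = 0.250 and 0.253). Of the 7 folding cofactor genes the edgeR test called 2 (28.6%, against 50.1% of all genes). Tbcc rose (26.8 to 38.0 ± 0.246 CPM) and Tbca fell (97.4 to 80.9 ± 0.904 CPM). The DESeq2 test made neither call (adjusted p = 0.0852 and 0.186). Ttc5, whose product recognises nascent tubulin and triggers decay of tubulin mRNA when free dimers are in excess, fell from 36.1 to 30.0 ± 1.58 CPM (edgeR adjusted p = 0.0402, DESeq2 adjusted p = 0.479).

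Among 8 severing enzyme genes the edgeR test called 3 (37.5%, against 50.1% of all genes). Katnal1 fell from 72.1 to 48.6 ± 3.98 CPM, Fignl2 had 22.9 and 15.4 ± 0.0997 CPM and Fignl1 113 and 140 ± 4.76 CPM. The DESeq2 test called the fall of Katnal1 alone. Spast, the spastin gene, did not pass, with 86.3 CPM in the control and 84.3 ± 3.50 CPM in the clones. Of 3 acetylation genes the edgeR test called 1 (33.3%). This was the tubulin deacetylase gene Hdac6, which rose from 62.4 to 71.9 ± 1.35 CPM (edgeR adjusted p = 0.0303, DESeq2 adjusted p = 0.429). Over all these lists the edgeR test called 40 of 73 tested genes, 54.8% against 50.1% of all genes, and the DESeq2 test 17, 23.3% against 22.2%, so both shares are near the background.

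**Figure D5:**
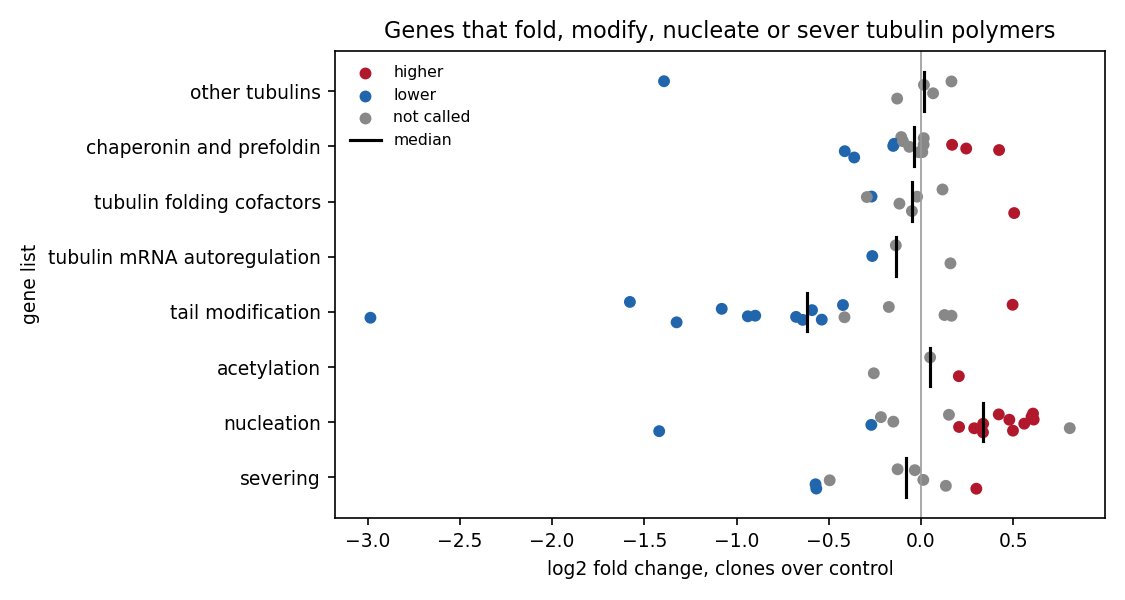
Log2 fold change, clones over control, of each tested gene in 8 lists that concern tubulin, with 1 point per gene, colour for the edgeR call and a black bar at the list median. Tail modification genes lie mostly left of 0 (median -0.62) and nucleation genes mostly right of it (median 0.34).

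Of the 4 marker lists of cell identity, the neuronal ones were lower in the clones. Of the 8 neuroblastoma and sympathetic markers 7 fell, against 25.8% of all genes lower. Of the 9 motor neuron markers 5 were tested and all 5 fell. The DESeq2 test called 6 and 2 of these lists, all lower, against 10.6% of all genes lower. Summed levels of the tested motor neuron genes were 70.1 CPM in the control and 26.6 and 23.4 CPM in the clones. Of the 8 fibroblast markers 7 were tested, with 2 higher (24.3% over all genes) and 2 lower (25.8% over all genes). The DESeq2 test called 1 of the 7, Pdgfrb, as higher, against 11.5% of all genes higher. Sums of the tested fibroblast genes were 102 CPM in the control and 97.3 and 128 CPM in the clones. Of the 8 glial markers 3 were tested and did not pass (edgeR adjusted p from 0.0832 to 0.200), where 50.1% of all genes were called. Their sums were 7.48 CPM in the control and 6.05 and 5.21 CPM in the clones. In the control, clone 1 and clone 2, Sox10 had 0, 3 and 8 reads and S100b 0, 1 and 3. Olig2 had 3, 0 and 4 reads and Aif1 2, 0 and 0. The part of these marker genes in the change of the tubulin isotypes was not tested.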

How the data were processed

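Per the labels' protocols, libraries were stranded and made from mRNA. The authors deposited raw counts per gene, obtained with STAR's GeneCounts mode, per the file headers, which name STAR 2.5, Gencode M16 (Ensembl 91) and GRCm38/mm10. STAR 2.5.3, DESeq2 and bcl2fastq are listed in the submitters' processing notes. The authors' deposited table of the comparison holds log2 fold changes and adjusted p-values from DESeq2, per the file headers. The strand setting of counting was not given in the sources used here.

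Deposited counts were tested with edgeR's quasi-likelihood method (two-sided, legacy option off) after filterByExpr and TMM scaling, with Benjamini-Hochberg adjustment over 13705 genes at 0.05 (R 4.3.3, edgeR 4.0.16, limma 3.58.1, DESeq2 1.42.0). Standard errors are fold changes divided by the square root of F. The design leaves 1 residual degree of freedom, from the clones. Separate cultures are not stated for these 2 samples, so the spread between them may be technical. The edgeR p-values do not rest on the spread of each gene alone. They also borrow from the spread of all tested genes, with 14.57 prior degrees of freedom beside the 1 residual. The control has no replicate and adds nothing to the measured spread. The method was also run on simulated counts with the same spread in all 3 libraries. Such counts cannot check how much untreated cells vary. Intervals (95%) and floors cover counting error only, since reads are not independent molecules.

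Positions, exon lengths and transcripts were taken from Gencode M21 (GRCm38), with 22933 of 22976 genes matched. The transcript with the longest coding sequence stood for each isotype. Alternatives were RLE factors, no filter, a mean CPM of at least 1, DESeq2, the legacy fit, limma-voom and each clone left out. For shares they were the longest transcript and plain reads. Chosen after seeing the data were unique 50-base windows, for shares and levels, and no filter with the legacy fit. The isotypes, their 2 groups and the gene lists were chosen with earlier results of these data known. Named were all 10 isotypes, up to 4 called genes of lowest p per list, and the 5 genes nearest to Tubb3 (predicted genes and pseudogenes aside, prior count 1). Ttl, Agtpbp1, Tubg1 and Spast were chosen after their values were seen. The 3 RPM columns were not used.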

Additional observations from a re-analysis of the deposited data

How the results depend on the processing

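The test of the 10 isotypes kept its 9 calls and their directions with RLE size factors, a mean CPM of at least 1, DESeq2, the legacy fit and limma-voom. Of 13705 genes, RLE factors called 6554, the legacy fit 6693 and limma-voom 6364. A mean CPM of at least 1 called 6875 of 12756 genes. Without a low-count filter edgeR called 4 of 22976 genes (7087 had an unadjusted p under 0.05), 0 isotypes and 0 genes of the microtubule lists, and with the legacy fit as well it called 0, 0 and 0, though each isotype kept its direction. The cause was not tested. DESeq2 called 3037 genes, against 6868 by edgeR, and 17 microtubule list genes, against 40, of which 7 were higher and 10 lower. With either clone left out there is no residual degree of freedom and so no count of calls, and the log2 fold change of Tubb3 was -1.61 to -1.65, that of Tubb6 0.97 to 1.07 and that of Tubb4a -0.23 to -1.18. No paired analysis was possible because there was 1 control library and no label links it to either clone. Depth limits Tubb4a, which had 20 to 49 reads per library.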
